A study of Rattus norvegicus with 9 samples.

Results

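The genes described here are 8 components and regulators of the complement system, measured in rat pancreatic stellate cells, the fibroblast-like cells that lay down scar matrix in the pancreas. They are C1r, C1s, C2, Cfb, C3, Serping1, Cd55 and Cd59. The members were chosen by symbol from the array's probe table, among entries paired with exactly 1 gene; had a gene several such entries, its brightest on the mean of the 9 arrays would stand for it. No comparison between surfaces entered that rule, but the list was drawn up with earlier results of these arrays known, among them the low Cd55 on both matrices, so the Cd55 values below are a description and their p-values are not independent evidence. Of the 8 members, 6 had an entry of their own, each exactly 1, among 14506 genes tested. C2 and Cfb, which lie side by side on rat chromosome 20, were paired with 1 common entry, and no value is given for them. Cd59 carried the symbol Cd59b in the probe table, a name for which the RefSeq gene table lists Cd59 as a synonym.

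The cells came from male rats of the Sprague Dawley strain, were separated on a density gradient and were grown in medium with 10% serum for 72 hours on one of 3 surfaces. The surfaces were Matrigel, a basement membrane extract (2 arrays), collagen I, whether as a gel or a coat is not stated (3 arrays), and plastic (4 arrays), each array a Rat Gene 1.0 ST chip with biotin-labelled total RNA. The sample titles carry a letter, A, P, S or Z, whose meaning is not stated; Matrigel arrays 1 and 2 have A and S, collagen arrays 1 to 3 have A, P and Z, and plastic arrays 1 to 4 have A, P, S and Z. The labels do not say whether the arrays of a surface came from separate animals or cultures, so p-values measure the spread between these arrays, which may be technical.

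Complement is a cascade of blood and tissue proteins that marks surfaces for removal. In the classical pathway C1q binds a target and activates the proteases C1r and C1s, which cleave C4 and C2 to form an enzyme that splits C3, the component on which all pathways meet; Cfb is the matching protease of the alternative pathway. Cells hold the cascade off with membrane proteins: Cd55 (decay-accelerating factor) takes the C3-splitting enzymes apart, and Cd59 blocks the final membrane pore. Serping1 encodes C1 inhibitor, the secreted inhibitor of C1r and C1s. The liver makes most of the circulating proteins, and fibroblasts and macrophages make part of the tissue supply.

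Across all genes tested, limma called 10.4% of genes on Matrigel against plastic (4.52% higher, 5.85% lower), 6.12% on collagen against plastic (2.95% higher, 3.17% lower) and 2.67% on Matrigel against collagen (1.21% higher, 1.45% lower), where a call means a two-sided Benjamini-Hochberg adjusted p under 0.05 over all genes. With each array re-centred on its median, the Matrigel against plastic calls were 512 higher and 1036 lower in place of 655 and 849, and the Matrigel against collagen calls 122 higher and 259 lower in place of 176 and 211. Of 13 stellate cell markers, all had an entry and 11 lay above 4.25, the 40th percentile of the gene means, below which a gene is called dim here; Gfap and Lrat were dim. On Matrigel against plastic 3 of the 13 stellate markers were called lower and 0 higher, and 6 of 9 islet and 2 of 9 acinar markers were called higher. The stellate list mean was 9.27 and 9.53 on Matrigel, 9.71 to 9.96 on collagen and 9.86 to 10.1 on plastic. The 2 comparisons against plastic share the plastic arrays, so their values are given side by side and are not independent of each other.

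The 6 measured members did not move together. Cd55 fell on both matrices, C3 was higher on Matrigel without passing the test, and C1r, C1s, Serping1 and Cd59b showed no difference that passed. In all, 1 of the 6 was called on Matrigel against plastic, 1 on collagen against plastic and 0 on Matrigel against collagen, where 1 of the 6 had an unadjusted p under 0.05, as 16.9% of all genes did. The median difference of the 6 was -0.03 (log2) on Matrigel against plastic, beside -0.01 over all genes, and -0.37 on collagen against plastic, beside 0.00 over all genes; on Matrigel against collagen it was 0.19, beside -0.02 over all genes. With 1 member called in each comparison against plastic, the count says little about complement as a group.

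**Figure D1:**
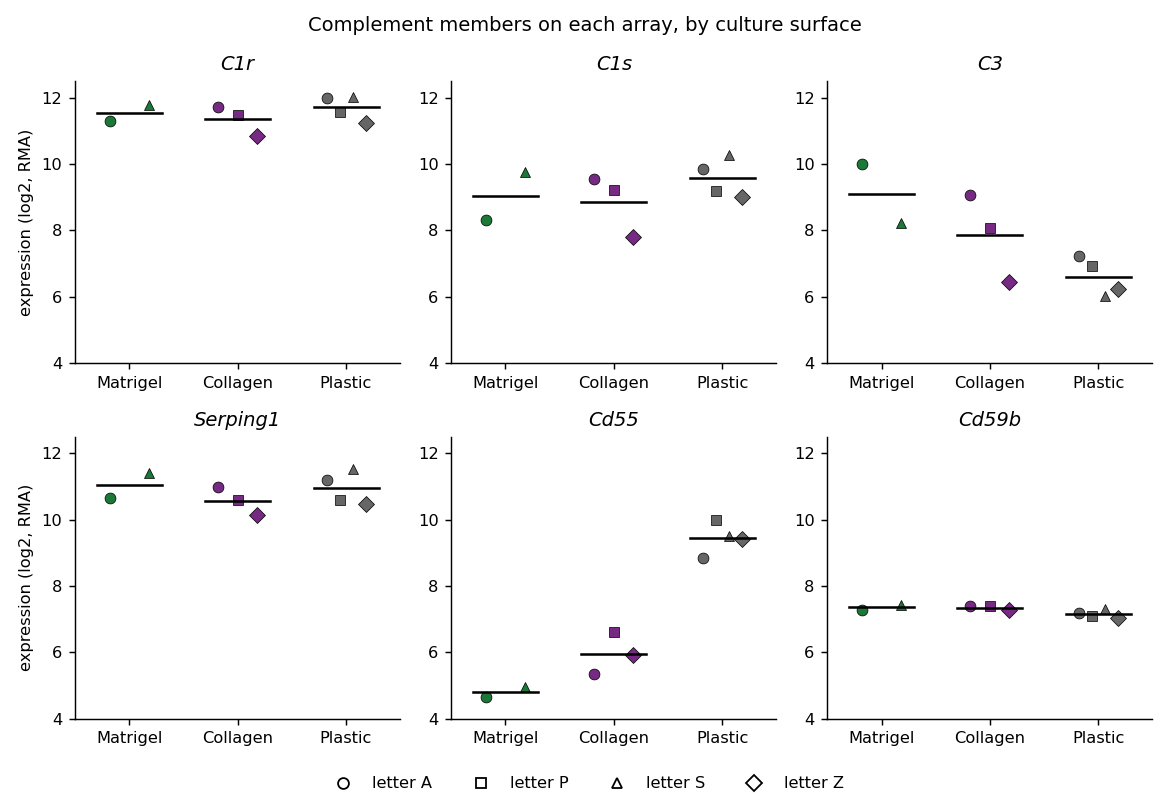
RMA log2 expression (vertical axis) of the 6 measured members on the 9 arrays, with Matrigel, collagen and plastic from left to right; each point is 1 array, its shape the title letter, and each bar a surface mean. The 4 plastic values of Cd55, from 8.85 to 10.00, all lie above its Matrigel and collagen values, and the Matrigel values of C3 lie above its plastic values.

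For the members held in the RefSeq promoter table on GRCr8, the 250 bases before the RefSeq start site are shown, 5′ to 3′ on the gene's strand. Those members were Cd55, C3 and C1r. Capitals mark TGACG, part of the cAMP response element, in Cd55, and TTGCNNAA, the binding letters of the C/EBP factors that drive acute-phase genes, in C3 and C1r, where C1r holds them on the opposite strand.
Cd55 (chr13:44438102-44438351, minus strand): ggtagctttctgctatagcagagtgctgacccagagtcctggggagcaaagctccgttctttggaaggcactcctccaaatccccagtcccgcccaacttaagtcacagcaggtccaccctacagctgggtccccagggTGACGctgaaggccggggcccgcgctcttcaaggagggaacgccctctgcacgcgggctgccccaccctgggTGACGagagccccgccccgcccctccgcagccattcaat
C3 (chr9:2201340-2201589, minus strand): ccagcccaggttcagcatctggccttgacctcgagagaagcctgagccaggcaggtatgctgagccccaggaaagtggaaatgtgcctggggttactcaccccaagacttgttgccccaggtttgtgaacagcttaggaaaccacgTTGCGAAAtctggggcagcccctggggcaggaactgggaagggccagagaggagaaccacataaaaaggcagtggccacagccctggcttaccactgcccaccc
C1r (chr4:159098763-159099012, plus strand): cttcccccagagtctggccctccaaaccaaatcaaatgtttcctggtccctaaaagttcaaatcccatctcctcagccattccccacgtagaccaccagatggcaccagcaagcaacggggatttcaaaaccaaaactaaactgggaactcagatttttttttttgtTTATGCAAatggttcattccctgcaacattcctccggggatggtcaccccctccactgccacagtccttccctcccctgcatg
Both strands were searched for 7 motifs, and the share of 33469 promoter windows of the same length that hold each is given beside it: TGANTCA for AP-1 (6.34%), TTGCNNAA for C/EBP (9.22%), TTCNNNGAA, the STAT site GAS (7.67%), GAAANNGAA, the core of the interferon response element (8.12%), TGACG (18.2%), GGAATG for TEAD (12.1%) and GGGCGG, the GC box (30.5%). The Cd55 window held TGACG at -111 and -39 from the start site and 3 GC boxes, 2 of which overlap by 1 base. The C3 window held the C/EBP letters at -104 and none of the other motifs. The C1r window held the C/EBP letters at -83 and GGAATG letters at -173, -69 and -57. Of other complement genes described below, the C5ar2 window held TGANTCA at -120 and the GAS letters at -217, without TGACG. The Cr1l window held none of the 7 motifs. A match in these windows describes the letters there and is not evidence of binding.

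Cd55 was the member that changed most between surfaces. Its values were 4.65 and 4.95 on Matrigel, 5.35, 6.60 and 5.93 on collagen, and 8.85, 10.00, 9.497 and 9.42 on plastic. Every Matrigel and collagen value lay below every plastic value, and both Matrigel values lay below all collagen values. Cd55 averaged 4.80 ± 0.21 (SD, n = 2) on Matrigel, 5.96 ± 0.63 (n = 3) on collagen and 9.44 ± 0.47 (n = 4) on plastic. Against plastic it fell by 4.64 ± 0.37 (SE) on Matrigel, 25.0-fold, and by 3.48 ± 0.32 on collagen, 11.2-fold (limma adjusted p = 0.000358 and 0.000616). Both Matrigel values of Cd55 lay near the dim level of 4.25, so the size of differences that involve Matrigel is less sure than their direction. Matrigel was lower than collagen by a difference of -1.16 ± 0.39, which did not pass (limma adjusted p = 0.167; 95% interval -2.04 to -0.28). Within title letters the difference from plastic was -4.20 and -4.55 for letters A and S on Matrigel, and -3.50, -3.40 and -3.49 for letters A, P and Z on collagen. The call held under each of 21 alternatives on Matrigel and 20 on collagen, with differences from -4.84 to -4.35 and from -3.80 to -3.18.

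Of the other membrane regulators, Cr1l (Crry), the rodent protein that like Cd55 limits C3-splitting enzymes on the cell surface, also fell on both matrices, by a smaller amount. Cr1l had 8.60 and 8.89 on Matrigel, 8.99, 8.91 and 8.90 on collagen, and 9.56, 9.48, 9.39 and 9.34 on plastic, with no overlap between either matrix and plastic. It fell by 0.70 ± 0.10 on Matrigel and by 0.51 ± 0.09 on collagen against plastic (limma adjusted p = 0.00378 and 0.0104), and the Matrigel against collagen difference was -0.19 ± 0.10 (limma adjusted p = 0.417). Both calls against plastic held under every alternative run.

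Cd59b, which acts at the last step of the cascade, showed none of this fall. Its values were 7.26 and 7.44 on Matrigel, 7.38, 7.39 and 7.26 on collagen, and 7.19, 7.11, 7.32 and 7.05 on plastic, so the surfaces overlapped. The differences were 0.19 ± 0.09 on Matrigel and 0.18 ± 0.08 on collagen against plastic, and 0.00 ± 0.10 on Matrigel against collagen (limma adjusted p = 0.280, 0.287 and 0.997). The 95% intervals ran from -0.03 to 0.40, from -0.01 to 0.37 and from -0.22 to 0.23. Of the 4 further membrane regulators listed, Cr1l was the 1 called on each matrix against plastic, and Cd46, Csmd1 and Susd4 were dim, so their differences carry little.

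**Figure D2:**
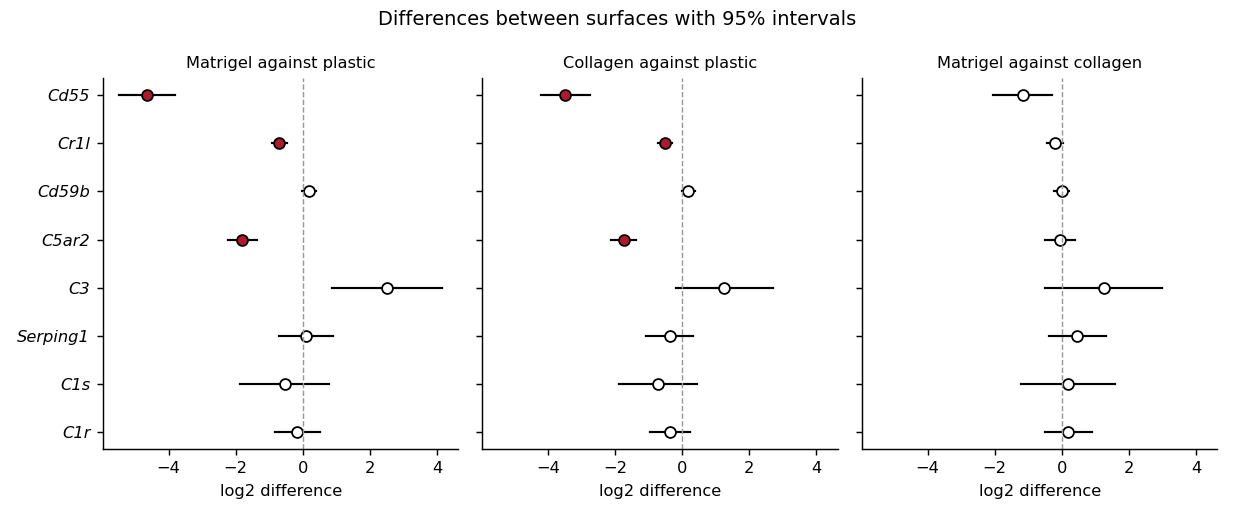
Differences in log2 expression between surfaces (horizontal axis, first surface minus second) with 95% intervals for 8 complement genes; filled points passed the adjusted threshold. Cd55, Cr1l and C5ar2 lie below 0 in both comparisons against plastic, and the C3 interval on Matrigel against plastic lies above 0 although its adjusted p of 0.0647 did not pass.

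C3 ran the other way. It had 9.99 and 8.22 on Matrigel, 9.05, 8.06 and 6.45 on collagen, and 7.21, 6.92, 6.01 and 6.25 on plastic. Both Matrigel values lay above all plastic values, while the collagen values were spread widely and overlapped both other surfaces. The difference from plastic was 2.51 ± 0.72 on Matrigel, 5.69-fold (95% interval 0.86 to 4.16; 1.62 without Matrigel array 1), and 1.26 ± 0.64 on collagen (interval -0.20 to 2.71), and Matrigel minus collagen was 1.25 ± 0.76 (interval -0.49 to 2.99). None passed (limma adjusted p = 0.0647, 0.338 and 0.457). Set against the plastic array of the same letter, C3 on collagen was higher by 1.84, 1.15 and 0.20 for letters A, P and Z. On Matrigel the same-letter differences were 2.78 and 2.21 for letters A and S. Their sign adds nothing, since both Matrigel values lay above all plastic values and any matching would give it. The Matrigel value passed under 5 of 21 alternatives, among them leaving out collagen array 1 (limma adjusted p = 0.0495) or collagen array 3 (0.0299); over all 21 the difference ran from 1.62 to 3.62 and its adjusted p from 0.012 to 0.371. Islet and acinar marker levels were also highest on Matrigel, though only 5 of 9 islet and 2 of 9 acinar markers lay above the dim level. The islet list mean was 7.78 and 6.69 on Matrigel, 6.25, 5.71 and 5.45 on collagen, and 6.12, 5.45, 5.60 and 5.01 on plastic. The acinar list mean was 5.15 and 4.29 on Matrigel, 3.49 to 3.998 on collagen and 3.495 to 3.79 on plastic. Neither list followed C3 on every array: collagen array 1 had more C3 than Matrigel array 2 but lower means of both lists. Their part in the C3 values was not tested, and more RNA per cell and more cells of a type cannot be told apart in such bulk samples.

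C1r and C1s, the paired proteases of the classical pathway whose genes are neighbours on chromosome 4, showed no difference between surfaces that passed. C1r had 11.29 and 11.79 on Matrigel, 11.73, 11.47 and 10.83 on collagen, and 11.99, 11.57, 12.01 and 11.25 on plastic. C1s had 8.32 and 9.76 on Matrigel, 9.54, 9.22 and 7.79 on collagen, and 9.86, 9.19, 10.26 and 9.01 on plastic. The surfaces overlapped for both genes, and letter S gave the highest value on each surface where it was used, while collagen array 3 (letter Z) was the lowest array of both. Against plastic C1r differed by -0.16 (95% interval -0.84 to 0.51) on Matrigel and -0.36 (-0.96 to 0.23) on collagen. C1s differed by -0.54 (-1.86 to 0.78) on Matrigel and -0.73 (-1.89 to 0.44) on collagen. The limma adjusted p-values of these 4 differences were 0.814, 0.525, 0.654 and 0.518. On Matrigel against collagen the differences were 0.20 for C1r and 0.19 for C1s (limma adjusted p = 0.811 and 0.923). The intervals of C1s were wider than those of C1r, so larger changes of C1s cannot be told from none at this number of arrays. Probes for C1s could also read its pseudogene C1s-ps1.

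Serping1, whose product inhibits those proteases, followed the same arrays. Its values were 10.66 and 11.41 on Matrigel, 10.98, 10.59 and 10.13 on collagen, and 11.18, 10.58, 11.51 and 10.48 on plastic. Letter S was again the highest on Matrigel and on plastic, and collagen array 3 the lowest of all 9. The differences were 0.10 (95% interval -0.70 to 0.89) on Matrigel and -0.37 (-1.08 to 0.33) on collagen against plastic, and 0.47 (-0.37 to 1.31) on Matrigel against collagen (limma adjusted p = 0.916, 0.591 and 0.578). After the surface means were removed, the deviations of the 9 arrays correlated at 0.96 for C1r with C1s, 0.94 for C1r with Serping1 and 0.95 for C1s with Serping1, as a description over arrays that share their letter, RNA and hybridisation. The same measure was 0.94 for Serping1 with Cd59b, but -0.29 for Serping1 with Cd55 and 0.11 for Serping1 with C3.

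The terminal components C6 and C7, which join the membrane pore, also had letters A and S above P and Z on plastic and are given here for that reason. C7 had 6.74 and 10.22 on Matrigel, 8.65, 8.88 and 7.78 on collagen, and 10.46, 9.11, 11.40 and 9.497 on plastic. C6 had 5.73 and 8.01 on Matrigel, 6.95, 6.26 and 6.11 on collagen, and 8.88, 7.31, 9.51 and 7.73 on plastic. All collagen values of both genes lay below all plastic values, and Matrigel array 1 lay below every other array while array 2 lay within the plastic range. C6 differed by -1.91 and C7 by -1.68 on collagen against plastic, and by -1.48 and -1.64 on Matrigel against plastic, and none passed (limma adjusted p = 0.144, 0.319, 0.263 and 0.339).

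**Figure D3:**
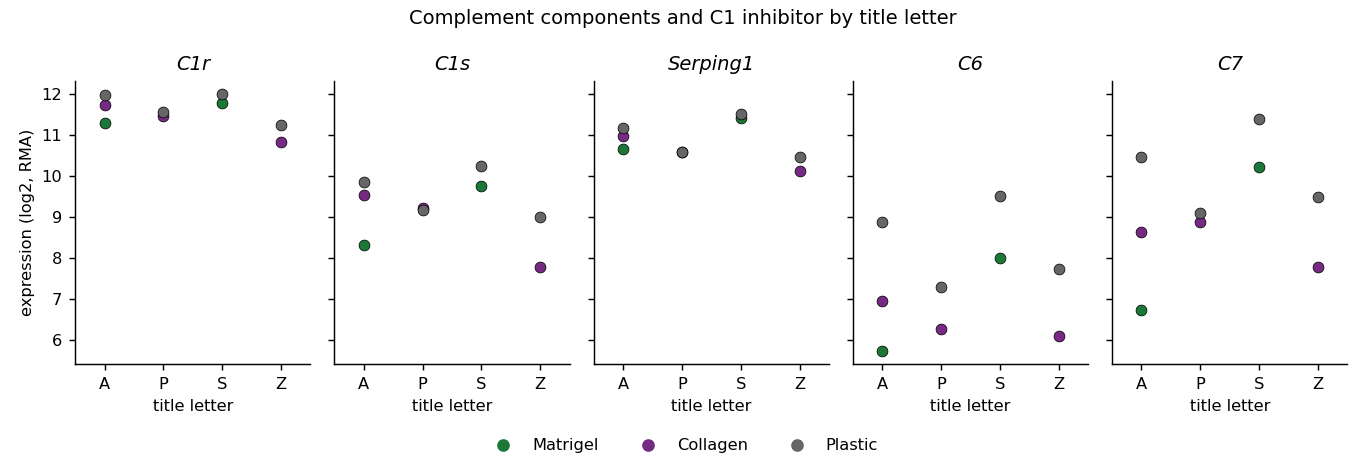
RMA log2 expression (vertical axis) of C1r, C1s, Serping1, C6 and C7 by title letter (horizontal axis), coloured by surface; each point is 1 array. On plastic, letters A and S lie above letters P and Z for all 5 genes, with C1s at 9.86 and 10.26 against 9.19 and 9.01.

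Of 47 further complement genes listed, 42 had an entry and 23 of these lay above the dim level. On Matrigel against plastic 4 were called higher and 2 lower, on collagen against plastic 0 higher and 2 lower, and on Matrigel against collagen 2 higher and 0 lower; at an unadjusted p under 0.05 the totals were 10, 9 and 8 of 42, beside 24.1%, 19% and 16.9% of all genes, so the list stood near the background. Their median differences were 0.07, -0.03 and 0.13. None of the 13 measured recognition molecules and proteases of the classical and lectin pathways was called in any comparison (limma).

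On Matrigel against plastic the receptors for the C5 fragment split in direction. C5ar2, a receptor that binds C5a without coupling to G proteins, had 5.59 and 5.47 on Matrigel, 5.48, 5.61 and 5.66 on collagen, and 7.56, 6.84, 7.58 and 7.37 on plastic. The Matrigel and collagen arrays lay close together and wholly below plastic. C5ar2 fell by 1.80 ± 0.19 on Matrigel and by 1.75 ± 0.17 on collagen against plastic (limma adjusted p = 0.00116 and 0.000736), under every alternative run, while the Matrigel against collagen difference was -0.05 ± 0.20 (limma adjusted p = 0.933). C5ar1, the G protein-coupled C5a receptor of myeloid cells and the neighbour of C5ar2 on chromosome 1, had 7.58 and 7.66 on Matrigel, 5.79, 5.88 and 6.72 on collagen, and 6.32, 5.70, 6.46 and 5.92 on plastic. C5ar1 averaged 6.13 on collagen and 6.1 on plastic, with no call between them. It rose by 1.52 ± 0.29 on Matrigel against plastic and by 1.49 ± 0.30 on Matrigel against collagen (limma adjusted p = 0.0125 and 0.0421). The first did not pass without Matrigel array 1 (0.0719) or 2 (0.0676). The second was lost under 11 of 20 alternatives, and did not pass without collagen array 1 or 2 (0.102 and 0.131), Matrigel array 1 or 2 (0.122 and 0.145) or plastic array 1, 2 or 4 (0.0745, 0.053 and 0.0724).

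Itgam and Itgb2, the 2 chains of complement receptor 3 on macrophages and neutrophils, were also higher on Matrigel than on plastic. Itgam rose by 1.98 ± 0.48 and Itgb2 by 1.53 ± 0.36 (limma adjusted p = 0.0342 and 0.0291). Itgam did not pass without collagen array 1 (0.0516), Matrigel array 1 or 2 (0.116 and 0.156) or plastic array 1, 2 or 4 (0.0655, 0.0715 and 0.0852), and Itgb2 did not pass without Matrigel array 1 or 2 (0.101 and 0.143) or plastic array 1 or 4 (0.0564 and 0.0712). Macrophage markers moved with these genes: all 16 had an entry and 14 lay above the dim level, with Marco and Aif1 dim. The mean of the list was 7.69 and 7.999 on Matrigel, 6.35 to 7.24 on collagen and 6.38 to 7.57 on plastic. The list's median difference on Matrigel against plastic was 1.07, with Laptm5 called higher. Of the 16 markers 9 had an unadjusted p under 0.05, beside 24.1% of all genes, a share that counts dim genes too. On plastic the list mean was 7.18 and 7.57 for letters A and S, and 6.38 and 6.52 for letters P and Z. On that surface letters A and S were thus high, as for C1s and Serping1. Collagen went the other way: the list mean was lowest for letter A (6.35) and highest for Z (7.24). C1s and Serping1 were there highest for A and lowest for Z. With the plastic arrays limited to letters A and S, an alternative added after the values were seen, the Matrigel against plastic adjusted p was 0.0813 for C5ar1, 0.173 for Itgam and 0.12 for Itgb2. When the fit took the mean of the macrophage list as a covariate, also added then, the differences of Itgam and Itgb2 were 0.78 and 0.67 (adjusted p = 0.0547 and 0.0898), that of C5ar1 was 0.83 and passed (0.0244) on Matrigel against plastic but was 0.61 and did not pass (0.255) on Matrigel against collagen, and those of Cd55, Cr1l and C5ar2 passed as well. Both Matrigel list means lay above those of all collagen and plastic arrays. The covariate fit therefore cannot separate macrophage level from the Matrigel surface. The part of macrophage RNA in the receptor values was not tested.

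**Figure D4:**
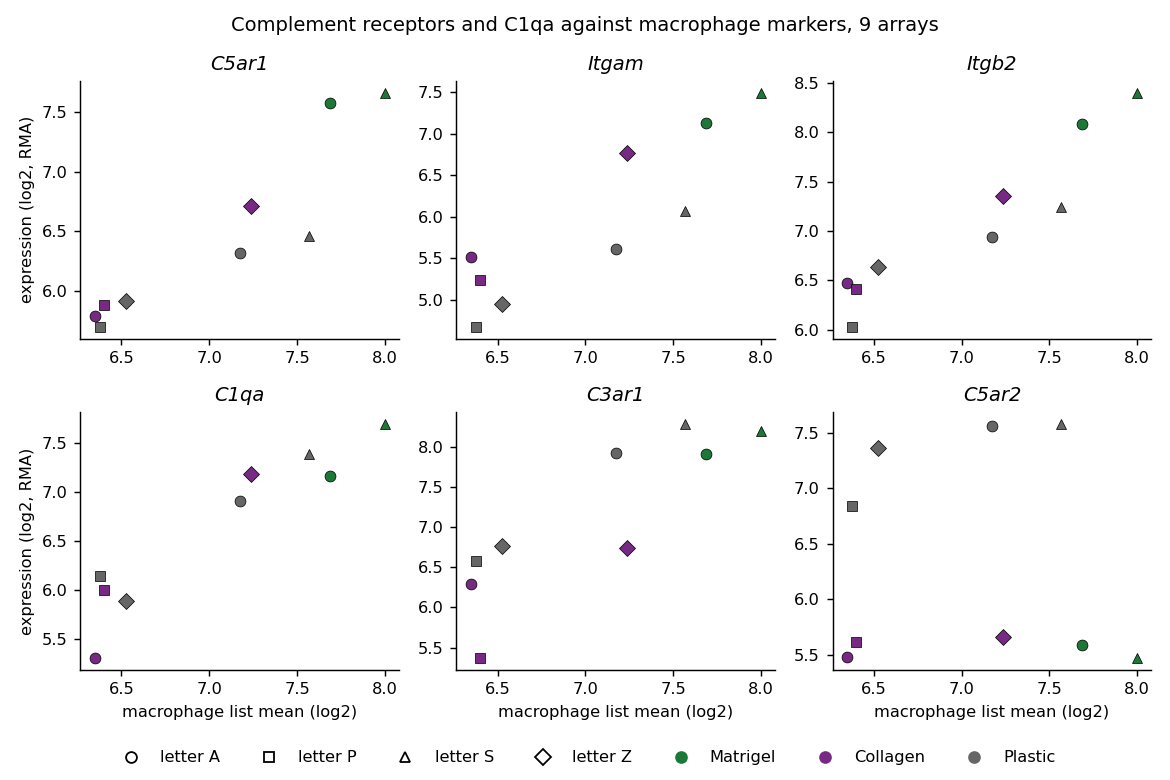
RMA log2 expression (vertical axes) of 5 receptor genes and C1qa against the mean of the 16 macrophage markers (horizontal axis, log2) on the 9 arrays, coloured by surface and shaped by title letter. C5ar2 lies lower on both matrices than on plastic, and only the collagen arrays overlap plastic in macrophage level. The Matrigel arrays, at 7.69 and 7.999 on the horizontal axis and above all others, hold the highest C5ar1, Itgam and Itgb2.

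C1q and the C3a receptor, also typical of macrophages, did not pass. C1qa had 7.16 and 7.69 on Matrigel, 5.30, 6.0 and 7.18 on collagen, and 6.91, 6.14, 7.39 and 5.88 on plastic, a difference of 0.85 ± 0.55 on Matrigel against plastic (limma adjusted p = 0.408). C1qc had 7.90 and 7.85 on Matrigel and 7.18, 6.89, 7.48 and 6.35 on plastic, a difference of 0.90 ± 0.34 (limma adjusted p = 0.144). C1qb differed by 0.33 ± 0.22 between these surfaces (limma adjusted p = 0.424). C3ar1 differed by 0.67 ± 0.53 on Matrigel and -1.25 ± 0.47 on collagen against plastic (limma adjusted p = 0.517 and 0.183). Among the remaining called genes, C4bpa, a soluble inhibitor, had 4.96 and 4.12 on Matrigel and 3.29 to 3.46 on plastic, so it was dim on all 4 plastic arrays and on Matrigel array 2, and no fold is given. It was called against plastic (limma adjusted p = 0.0165), but not without Matrigel array 1 (0.106), with plastic letters P and Z left out (0.114) or with the macrophage covariate (0.069). Cfd, the factor D protease of the alternative pathway, was higher on Matrigel than on collagen by 1.36 ± 0.29 (limma adjusted p = 0.0487). That call was lost under 12 of 20 alternatives, among them leaving out any collagen or Matrigel array or plastic array 1 or 4. The highest adjusted p was 0.49, with the macrophage covariate, where the difference was 0.81.

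Of 33 listed signals and transcription factors known to act on complement genes, 30 had an entry. On Matrigel against plastic 7 were called higher and 2 lower, on collagen against plastic 7 higher and 3 lower, and on Matrigel against collagen 2 higher and 2 lower. Over all genes the shares called higher and lower were 4.52% and 5.85%, 2.95% and 3.17%, and 1.21% and 1.45%, below those of the list, whose genes were listed with earlier results known. Of the 30, 28 lay above the dim level, while those shares count dim genes too, so they are not like for like. With only genes above the dim level tested, 1632, 1044 and 462 genes were called in place of 1504, 888 and 387, from fewer genes. The median differences of the list were -0.04, 0.02 and -0.02, close to those of all genes. Lif, an interleukin-6 family cytokine, had 9.15 and 8.68 on Matrigel, 9.84, 10.14 and 10.04 on collagen, and 5.71, 6.16, 6.02 and 6.25 on plastic. Lif rose by 2.88 ± 0.18 on Matrigel and by 3.97 ± 0.16 on collagen against plastic (limma adjusted p = 0.000159 and 1.76e-05). Il6, the main inducer of acute-phase genes, had 8.45 and 8.75 on Matrigel, 9.32, 9.46 and 9.33 on collagen, and 7.50, 7.09, 7.93 and 7.30 on plastic, and rose by 1.15 and 1.92 (limma adjusted p = 0.00986 and 0.000667). The plastic arrays were the lowest for both cytokines. The Il6 call on Matrigel did not pass without Matrigel array 2 (0.0694) or with the macrophage covariate (0.0901). On Matrigel against collagen Lif fell by 1.09 (limma adjusted p = 0.0259), a call lost under 6 of 20 alternatives, among them leaving out collagen array 2 (0.0931) or 3 (0.0675) or Matrigel array 2 (0.106). Il1a, an interleukin-1 cytokine, rose by 1.86 on collagen against plastic under every alternative run (limma adjusted p = 0.0104), with a Matrigel against plastic difference of 0.02 (0.989). On Matrigel against collagen Il1a fell by 1.84 (0.0448), a call lost under 12 of 20 alternatives, among them leaving out any collagen or Matrigel array or plastic array 1, 2 or 4.

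The NF-kappaB genes Nfkbia, its inhibitor, and Nfkb2, a subunit, were higher on both matrices than on plastic. Nfkbia rose by 1.22 on Matrigel and 1.495 on collagen (limma adjusted p = 0.0141 and 0.00408), and Nfkb2 by 0.77 and 0.52 (limma adjusted p = 0.00301 and 0.0122). Nfkbia on Matrigel did not pass without Matrigel array 1 (0.0818) or 2 (0.0722), with plastic letters P and Z left out (0.0508) or with the macrophage covariate (0.146), and Nfkb2 on collagen did not pass without collagen array 2 (0.0572) or 3 (0.0524). Nfkb1, another subunit, was 0.35 higher on collagen than on plastic (limma adjusted p = 0.0374), but not past the threshold with the title letter as a replicate block (0.0618) or without collagen array 1 or 2 or any 1 plastic array (0.0726 to 0.137).

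The 3 listed C/EBP factors, whose binding letters are marked above in C3 and C1r, moved in different directions. Cebpa rose by 1.06 on Matrigel against plastic and by 1.35 on Matrigel against collagen (limma adjusted p = 0.00497 and 0.0118), and its collagen against plastic difference was -0.28 (0.332). The first did not pass with plastic letters P and Z left out (0.0513), and the second was lost under 3 of 20 alternatives, with adjusted p up to 0.139. Cebpb rose on both matrices against plastic, by 0.33 on Matrigel and 0.47 on collagen (limma adjusted p = 0.0477 and 0.00962). The collagen call of Cebpb held under every alternative run, and the Matrigel call was lost under 15 of 21, among them leaving out any collagen or Matrigel array or plastic array 1, 2 or 3 (0.0578 to 0.161). Cebpd fell by 0.86 ± 0.15 on collagen against plastic under every alternative run (limma adjusted p = 0.0102), and its Matrigel against plastic difference was -0.43 ± 0.17 (0.160).

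Other called factors of cytokine signalling were mostly lower on the matrices. Stat3, which carries the interleukin-6 signal to the nucleus, was lower than on plastic by differences of -0.42 on Matrigel and -0.47 on collagen (limma adjusted p = 0.0449 and 0.0232). The Matrigel call of Stat3 was lost under 15 of 21 alternatives, among them leaving out any collagen or plastic array or Matrigel array 1, where the difference was -0.21 (0.222). Its collagen call was lost without any 1 collagen or plastic array (0.0506 to 0.0886) and with the title letter as a replicate block (0.0561). Stat2, a factor of the type I interferon pathway, differed by -1.12 on Matrigel against plastic (limma adjusted p = 0.0409), lost under 12 of 21 alternatives, among them leaving out collagen array 2 or 3, Matrigel array 1 or plastic array 1, 3 or 4 (0.0558 to 0.263). Jak1, a kinase that cytokine receptors use, differed by -0.51 on collagen against plastic (limma adjusted p = 0.0212), lost without any 1 collagen array or plastic array 1 or 4 (0.0526 to 0.0809). Irf2, an interferon regulatory factor, rose by 0.62 on Matrigel against plastic (limma adjusted p = 0.00923). It did not pass without Matrigel array 2 (0.0617), with plastic letters P and Z left out (0.0563) or with the macrophage covariate (0.104). On Matrigel against collagen Irf2 was 0.58 higher (0.0400), lost under 13 of 20 alternatives, among them leaving out any collagen or Matrigel array or plastic array 1, 2 or 4 (0.0501 to 0.155).

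**Figure D5:**
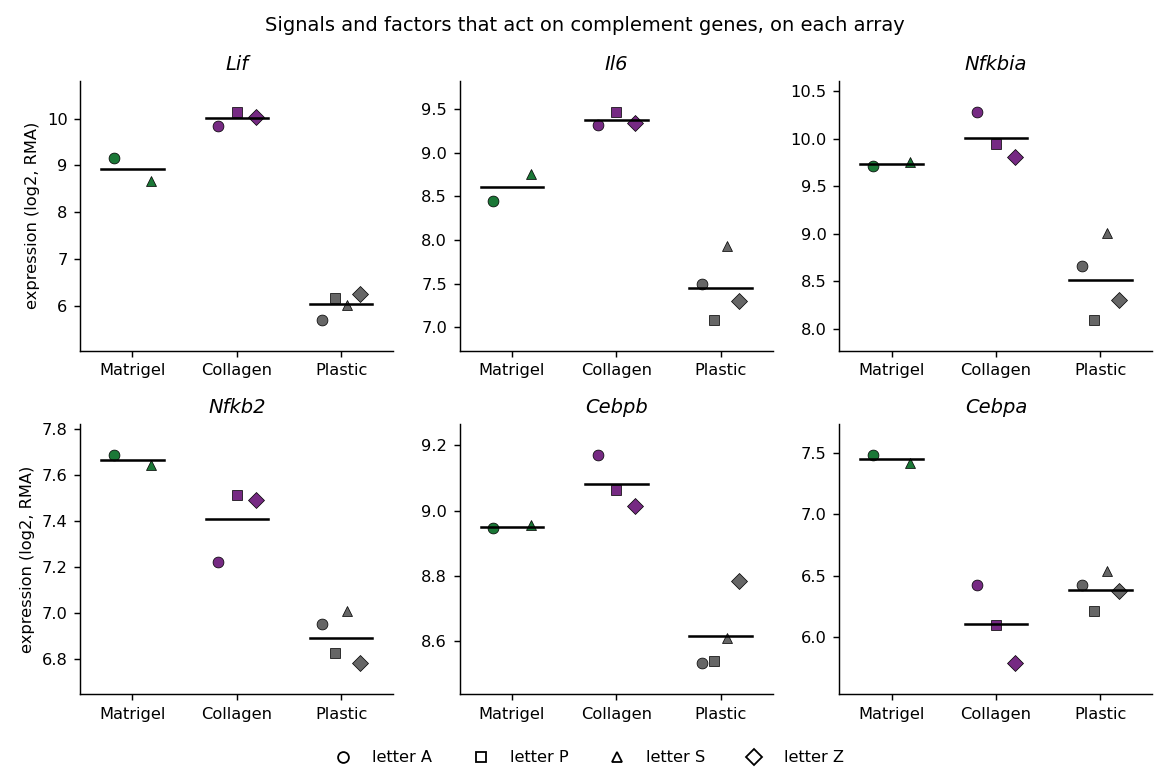
RMA log2 expression (vertical axes, each panel on its own range) of 6 signals and factors on the 9 arrays, with Matrigel, collagen and plastic from left to right; points are arrays shaped by title letter, bars are surface means. Lif, Il6, Nfkbia, Nfkb2 and Cebpb have every matrix value above every plastic value, whereas Cebpa is above the plastic values on both Matrigel arrays and overlaps them on collagen.

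For each member, the 3 genes most like it over the 9 arrays were ranked by Pearson correlation among 8702 genes above the dim level, as a description over arrays that share their surfaces. Cd55 was most like Sema3d (0.989), Fads3 (0.987) and Ext1 (0.983). Each of these was itself called lower on both matrices against plastic. Their choice by likeness to Cd55 makes such calls likely, so the calls add little. C3 was most like Wtap (0.947), Banp (0.939) and Zfp217 (0.939). C1r was most like Angpt1 (0.958), C1s (0.957) and Vat1 (0.954), and C1s most like Ttc38 (0.972), C1r (0.957) and Amigo2 (0.954). Serping1 was most like Lpl (0.956), B2m (0.955) and Clec7a (0.937), and Cd59b most like Galk2 (0.988), Col16a1 (0.968) and Mmp2 (0.967).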

How the data were processed

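The data are 9 arrays of rat pancreatic stellate cell RNA. The deposited values are on the log2 scale and come from RMA as run by the authors, per the submitters' processing notes; RMA corrects background, equalises the distributions of the arrays and summarises the probes of each set. Its software version and the genome build: not given in the sources used here. Nothing was normalized again. Of 29215 entries, 15310 carried 1 gene symbol in the probe table, 323 carried several and 13582 none. The brightest entry of each gene was kept, which left out 804. A RefSeq gene table held 15279 of the single-symbol identifiers and changed 0 symbols.

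Models were fitted in R 4.3.3 with limma 3.58.1. Each surface had 1 mean, all 9 arrays entered (6 residual degrees of freedom), the empirical Bayes step had no trend, and p-values were adjusted by Benjamini-Hochberg over 14506 genes per comparison. Intervals are 95% and unadjusted. The fit was tested on simulated data. The number of arrays, 2 to 4 per surface, limits the precision. The members, gene lists and alternatives were chosen with earlier results of these data known. The text names all members, the other listed pathway genes past the threshold, some of the 4 genes of smallest p per list, and the 3 genes most like each member. Alternatives were re-centring, repeated quantile normalization, a filter on dim genes, all rows, mean of rows, 2 groups only, trend and robust moderation, array weights, title letter as a fixed or random block, and leaving out each array; 2 more were added after the values were seen. Same-letter deviations correlated at 0.196, 0.234 and 0.269 between collagen and plastic. Different-letter values ran from -0.243 to 0.243, the highest for collagen letter A with plastic letter S. Deviations within a surface also constrain each other, being taken from their own mean. These values do not settle whether the letters are pairs there, and the within-letter differences are a description. The main fit used no pairs. With the letter as a replicate block, Cd55 stayed called and the other members uncalled on collagen against plastic. Between Matrigel and plastic the same letters gave -0.131 and 0.406. The 2 Matrigel arrays deviate from their mean by equal and opposite amounts, so these values cannot decide whether those letters are pairs.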

Additional observations from a re-analysis of the deposited data

How the results depend on the processing

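The calls of Cd55, Cr1l and C5ar2 against plastic held under every alternative, and no difference of a member or of another called gene reversed as a call. Members called on Matrigel against plastic were 2 in place of 1, with C3 added, with only genes above the 40th percentile (C3 adjusted p = 0.0431), with the title letter as a fixed replicate block (0.012) and as a random replicate block (0.0393), and 1 to 2 when single arrays were left out. Genes called on Matrigel against plastic (1504) were 628 when plastic letters P and Z were left out, 547 with macrophage marker level as a covariate, and 759 to 1461 when single arrays were left out. Genes called on collagen against plastic (888) were 552 to 870 when single arrays were left out; with the replicate block they were 1072, and of the calls named the block ended those of Stat3 and Nfkb1 there and no other. Genes called on Matrigel against collagen (387) were 257 with array weights, 66 with the replicate block, 1 with the macrophage covariate, 68 to 352 when single arrays were left out, and 0 by limma with only those 2 groups in the fit, where 2094 genes had an unadjusted p under 0.05. The cause was not tested. Of 33 calls of other complement and inducer genes, 12 held under every alternative run for them. The deposited table gives no background measure, so whether a dim gene is above background is not known.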
